A study of Mus musculus with 16 samples.

Results

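The genes described here make, convert and break down polyamines: Smox, Odc1, Amd1, Srm, Sms, Sat1, Oaz1, Oaz2 and Azin1. Every probe that the array annotation assigned to one of these 9 gene symbols was taken, which gave 14 of 25697 probes and 8 of the 9 genes. Amd1 was the exception, since no probe carried that symbol. A probe for Amd2, a gene for the same enzyme that lists Amd1 among its synonyms in RefSeq, was added after the data had been seen and is kept apart from the 14.

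Quadriceps femoris muscle from 8 ATF4 mKO mice and 8 control mice was hybridised to Illumina Mouse Ref-8 v2.0 bead arrays, with 1 array per mouse. The ATF4 mKO mice were males aged 22 months that carried floxed Atf4 alleles on both chromosomes together with an MCK-Cre transgene. The control mice were male littermates of the same age with the same floxed alleles and no Cre. MCK-Cre is driven by the muscle creatine kinase promoter and recombines in skeletal muscle fibres and in the heart, so that Atf4 in vessels, nerve, fat and blood cells of the muscle is not its target. The comparison asks which mRNAs depend on the transcription factor ATF4 in aged muscle.

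Polyamines (putrescine, spermidine and spermine) are small cations that bind nucleic acids. Odc1 makes putrescine from ornithine, and the spermidine and spermine synthases Srm and Sms extend it with aminopropyl groups supplied through S-adenosylmethionine decarboxylase, the product of Amd1. Sat1 and Smox run the pathway backwards, and antizymes keep it in check by sending ornithine decarboxylase to the proteasome. In mouse skeletal muscle, Smox is known as an abundant mRNA that is lost in several forms of muscle atrophy, where Cdkn1a represses it.

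The promoters of Smox, Odc1, Amd1 and Amd2 are printed because these were the members whose levels, or the levels of a close relative, varied most between mice. Each line runs 5′ to 3′ on the strand of the gene from 250 bases before to 50 bases after the start in RefSeq (GRCm38.p6). Capitals in the lines of Amd1 and Amd2 mark the longest stretch that both windows share, 48 bases long and lying just after the start. The windows are chr2:131491612-131491911 (plus strand) for Smox, chr12:17544623-17544922 (plus strand) for Odc1, chr10:40302139-40302438 (minus strand) for Amd1 and chr10:35711842-35712141 (minus strand) for Amd2.
Smox: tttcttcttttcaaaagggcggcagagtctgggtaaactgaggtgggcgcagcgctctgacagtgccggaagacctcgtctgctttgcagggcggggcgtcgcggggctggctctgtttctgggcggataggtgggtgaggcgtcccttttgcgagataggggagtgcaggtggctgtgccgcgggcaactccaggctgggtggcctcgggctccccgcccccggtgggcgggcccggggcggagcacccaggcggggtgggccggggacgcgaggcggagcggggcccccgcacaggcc
Odc1: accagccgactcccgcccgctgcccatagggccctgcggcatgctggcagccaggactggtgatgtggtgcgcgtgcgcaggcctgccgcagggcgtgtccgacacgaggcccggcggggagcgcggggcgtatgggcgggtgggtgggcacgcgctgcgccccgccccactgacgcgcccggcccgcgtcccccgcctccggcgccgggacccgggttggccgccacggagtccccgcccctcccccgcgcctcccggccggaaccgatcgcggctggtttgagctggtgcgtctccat
Amd1: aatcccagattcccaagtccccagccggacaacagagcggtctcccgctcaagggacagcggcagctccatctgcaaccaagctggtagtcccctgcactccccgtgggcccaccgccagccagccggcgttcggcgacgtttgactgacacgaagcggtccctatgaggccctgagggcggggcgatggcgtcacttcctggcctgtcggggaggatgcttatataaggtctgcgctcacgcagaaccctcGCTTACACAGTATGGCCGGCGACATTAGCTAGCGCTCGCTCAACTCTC
Amd2: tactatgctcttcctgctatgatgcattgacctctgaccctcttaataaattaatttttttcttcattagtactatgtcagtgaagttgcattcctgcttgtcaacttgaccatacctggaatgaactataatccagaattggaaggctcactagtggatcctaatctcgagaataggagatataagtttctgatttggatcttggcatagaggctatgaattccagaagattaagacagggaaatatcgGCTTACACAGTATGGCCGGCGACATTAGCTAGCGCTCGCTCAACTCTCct

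The Odc1 window was 78.0% G or C, the Smox window 71.0%, the Amd1 window 63.0% and the Amd2 window 40.7%. Whether the Amd2 probe also binds Amd1 mRNA was not tested, and the Amd2 values below are those of the probe and not of a single known transcript. The windows were searched on both strands for the composite ATF4 site TGATGNAAN, its stricter form TGATGCAAT and the E-box CACGTG, which Myc and related factors bind. TGATGNAAN was found in 3.95%, TGATGCAAT in 0.192% and CACGTG in 7.15% of 32851 RefSeq promoter windows of this length. Of the 9 members, 7 had a window, and neither ATF4 motif was in any of them or in that of Amd2. The E-box was found once, at position -196 from one of the starts of Sms.

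Atf4 itself separated the genotypes, with a log2 signal of 8.52 ± 0.05 in ATF4 mKO muscle and 10.45 ± 0.12 in control muscle (SD, n = 8 each), a change of -1.93 (limma, adjusted p = 1.26e-13). The deposited log2 signals lay between 8.25 and 15.40, and 65.7% of probes had a mean under 8.5, close to a floor near 8.3 that compresses any change. The number of arrays limits the precision throughout. Muscle fibre markers were among the highest signals (mean of the marker list 14.30 to 14.42 in ATF4 mKO mice and 14.28 to 14.42 in control mice). Of 53 measured markers of muscle fibres and other cells, limma called 0, with 2 at an unadjusted p under 0.05, against 956 of all 16593 genes by their brightest probe, and the methods' t-test called 0 after adjustment. Red blood cell and slow fibre markers had median changes of -0.21 and -0.31 in ATF4 mKO muscle, without a called member. Among the control mice, mouse 3 lay farthest out on the second principal component (8.72) and mouse 7 on the first (5.73). Outlying arrays were not confined to the control mice. On the first component, ATF4 mKO mice 8 and 5 lay farther out, at 7.15 and 6.88, and on the second ATF4 mKO mouse 1 lay at -6.19.

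No polyamine gene passed the test between the genotypes. By limma with Benjamini-Hochberg adjustment over all 25697 probes, 0 of the 14 member probes had an adjusted p of 0.1 or less, against 0.136% of all probes (35 probes). At an unadjusted p of 0.05 or less, 2 of 14 were found, a probe each of Oaz1 and Srm, against 5.62% of all probes. By the methods' t-test at an unadjusted p of 0.025, 1 of 14 was found, for Oaz1, against 2.85% of all probes, and after Benjamini-Hochberg adjustment 0 were found. Of the 14 probes, 11 were lower and 3 higher in mean in ATF4 mKO muscle, and the 3 higher ones were the 3 probes of Srm. The lower ones include every probe of Smox, which rose and fell together between mice, and the floor-level probes of Sms and Azin1. They are thus not separate counts of genes, and the share of all probes that were lower was not taken. The median change of the 8 measured members, each by its brightest probe, was -0.06 on the log2 scale, beside 0.00047 over all 16593 genes. These sets differ in signal, since 6 of the 8 members had a mean of 8.5 or more, against 6380 of the 16593 genes. The floor compresses the changes of the other genes, and no median over genes of like signal was taken. Whether the members were shifted against such genes was not tested. Since each array was made from whole muscle, fewer cells of a type and less RNA per cell cannot be told apart in any of these values.

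**Figure D1:**
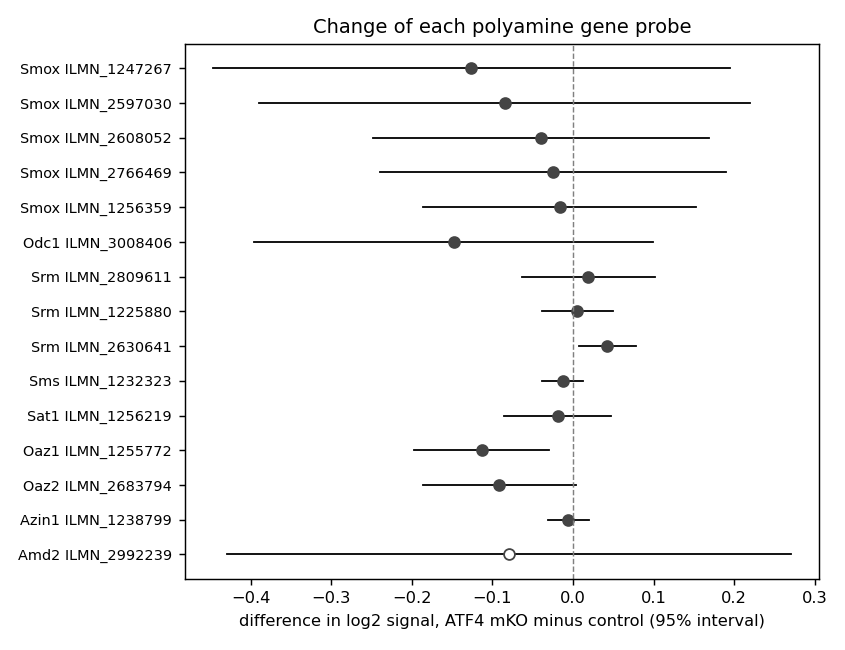
Difference in log2 signal between 8 ATF4 mKO and 8 control mice for each of the 14 member probes (filled points) and the Amd2 probe (open point), with the 95% interval of limma. The intervals of an Oaz1 probe and an Srm probe lie apart from 0 before adjustment, and the widest intervals are those of Smox, Odc1 and Amd2.

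Odc1 encodes ornithine decarboxylase, the first and usually rate-limiting step of polyamine synthesis. Its log2 signal was 11.57 at the lowest, 11.78 at the median and 12.02 at the highest in ATF4 mKO muscle, against 11.45, 11.93 and 12.46 in control muscle. The control mice spanned the whole range of the ATF4 mKO mice, and 6 of 8 ATF4 mKO mice lay under the control mean. The change was -0.15 ± 0.12 (SE, 95% interval -0.40 to 0.10, limma adjusted p = 0.931, exact permutation p = 0.255). It was -0.07 without control mouse 7 and -0.22 without control mouse 5. In linear terms ATF4 mKO muscle had 0.902 of the control level with all arrays, with an interval of 0.76 to 1.07. Between the lowest and the highest of the 16 mice, Odc1 varied 2.01-fold.

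Amd2 encodes an S-adenosylmethionine decarboxylase, which supplies the aminopropyl groups. The Amd2 probe read 9.59, 10.08 and 10.21 (lowest, median, highest) in ATF4 mKO muscle and 9.66, 9.88 and 10.97 in control muscle. Control mouse 7 was the highest, and the next highest mouse was control mouse 6 at 10.35. The change was -0.08 ± 0.17 (SE, 95% interval -0.43 to 0.27, limma adjusted p = 0.986, exact permutation p = 0.685), and without control mouse 7 it was 0.05. The SD was 0.226 in ATF4 mKO muscle and 0.44 in control muscle.

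Srm, the spermidine synthase, was read by 3 probes near the floor. The probe ILMN_2630641 gave 8.57, 8.64 and 8.68 in ATF4 mKO muscle and 8.55, 8.59 and 8.61 in control muscle. Its groups overlapped, with 1 of 8 ATF4 mKO mice under the control mean, and its change was 0.04 ± 0.02 (SE, limma adjusted p = 0.834, exact permutation p = 0.0291). With the floor subtracted on the linear scale this change was 0.17 (limma adjusted p = 0.873). The brighter probes ILMN_2809611 and ILMN_1225880 differed by 0.02 (exact permutation p = 0.644) and 0.01 (exact permutation p = 0.802). Their values did not follow the dimmest probe between mice (r between -0.25 and 0.25), whereas the brighter pair correlated at 0.48 in ATF4 mKO mice and 0.60 in control mice.

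Sms, the spermine synthase, had a mean of 8.32 ± 0.02 in ATF4 mKO muscle and 8.34 ± 0.03 in control muscle (SD, n = 8 each), which is the level of the floor. Azin1, an inhibitor of the antizymes that thereby protects ornithine decarboxylase, read 8.42 ± 0.02 in ATF4 mKO muscle and 8.43 ± 0.03 in control muscle. Differences of -0.01 for Sms (exact permutation p = 0.306) and -0.01 for Azin1 (exact permutation p = 0.631) at this level say nothing about the mRNAs. These 2 of the 14 probes had a mean under 8.5.

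Sat1 acetylates spermidine and spermine, which marks them for oxidation or export. It read 9.95, 9.99 and 10.15 (lowest, median, highest) in ATF4 mKO muscle and 9.94, 10.04 and 10.10 in control muscle. The groups overlapped, and the change was -0.02 ± 0.03 (SE, 95% interval -0.09 to 0.05, limma adjusted p = 0.98, exact permutation p = 0.565). The interval of the linear ratio, 0.943 to 1.03, was narrower than those of Smox, Odc1, Oaz1 and Oaz2.

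Oaz1, the main antizyme, had the smallest p of the members. Its log2 signal was 11.82 at the lowest, 11.96 at the median and 12.07 at the highest in ATF4 mKO muscle, against 11.96, 12.10 and 12.16 in control muscle. All 8 ATF4 mKO mice lay under the control mean of 12.07, but 3 control mice, numbers 3, 4 and 8, lay within the range of the ATF4 mKO mice. The change was -0.11 ± 0.04 (SE, 95% interval -0.20 to -0.03, exact permutation p = 0.0196), or 0.925 of the control level, and the adjusted p of 0.76 by limma did not pass the threshold. With 1 array left out at a time, the adjusted p ran between 0.657 and 0.904, and with the floor subtracted it was 0.893.

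Oaz2, a second antizyme, read 10.76, 10.94 and 11.04 in ATF4 mKO muscle and 10.90, 10.96 and 11.19 in control muscle. The lowest 3 values of the 16 belonged to ATF4 mKO mice 8, 2 and 3, and control mouse 1 was the highest. Of the ATF4 mKO mice, 7 of 8 lay under the control mean. The change was -0.09 ± 0.05 (SE, 95% interval -0.19 to 0.00405, limma adjusted p = 0.883, exact permutation p = 0.0774). The mean of the red blood cell markers had a deviation from the genotype mean that correlated over the 16 mice at -0.574 with Oaz1 and -0.104 with Oaz2. For the macrophage and leukocyte markers these values were -0.618 and -0.0634. They were 0.506 and 0.476 for the Schwann cell markers and 0.0172 and 0.548 for the adipocyte markers. For the other marker lists they lay between -0.403 and 0.262 with Oaz1 and between -0.0779 and 0.232 with Oaz2. The mean of the 4 measured red blood cell markers, 3 of them above 8.5, ran between 9.50 and 10.09 in ATF4 mKO mice and between 9.70 and 10.70 in control mice. The mean of the 6 measured macrophage and leukocyte markers, 1 of them above 8.5, ran between 8.42 and 8.65 in ATF4 mKO mice and between 8.46 and 8.60 in control mice. The part of any of these lists in the antizyme values was not tested.

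**Figure D2:**
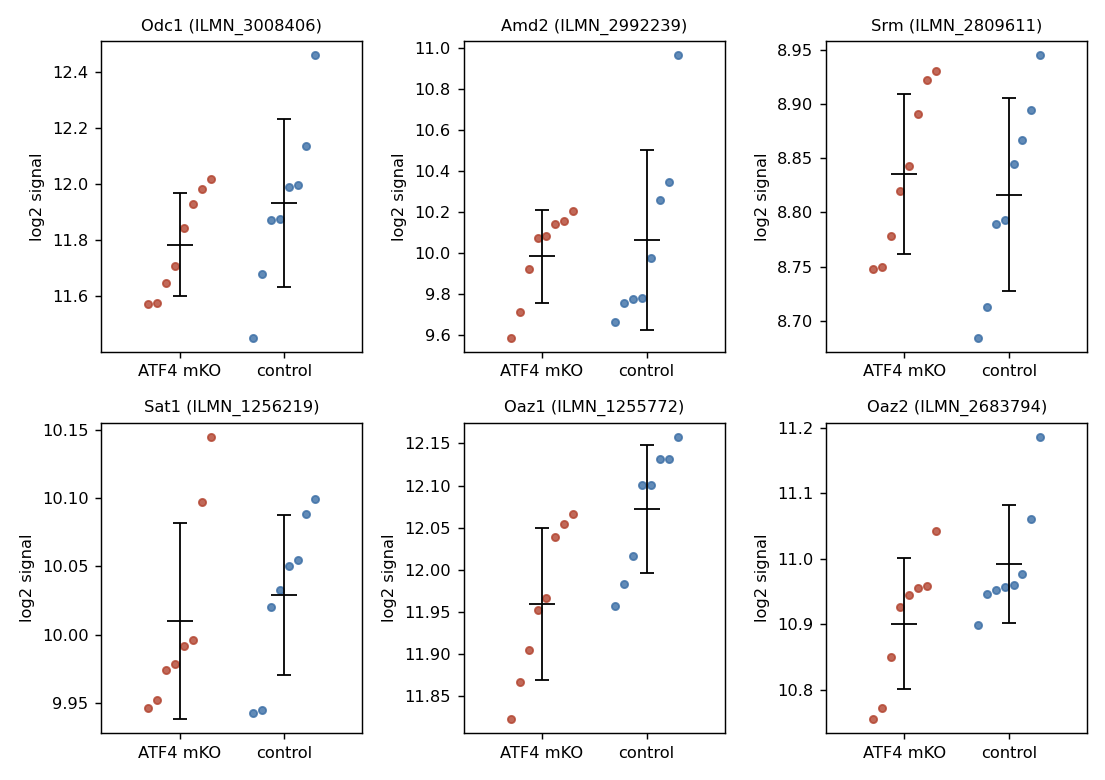
Log2 signal in each mouse (points; 8 ATF4 mKO on the left, 8 control on the right of each panel) for Odc1, Amd2, Srm, Sat1, Oaz1 and Oaz2 by the brightest probe, with the mean and SD as bars and a separate vertical scale in each panel. The groups overlap in all 6 panels, and control mouse 7 is the top point of Odc1 and Amd2.

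Smox, the spermine oxidase that turns spermine back into spermidine and releases hydrogen peroxide and an aldehyde, was read by 5 probes. The brightest, ILMN_1247267, gave 11.82 at the lowest, 12.13 at the median and 12.54 at the highest in ATF4 mKO muscle, against 11.80, 12.21 and 12.85 in control muscle. High values were found in both genotypes, in ATF4 mKO mice 2 and 1 and in control mice 8, 6 and 7, while control mouse 3 and ATF4 mKO mouse 3 were lowest. The change was -0.13 ± 0.15 (SE, 95% interval -0.45 to 0.19, limma adjusted p = 0.966, exact permutation p = 0.441). It was -0.04 without control mouse 8 and -0.19 without control mouse 3. In linear terms ATF4 mKO muscle had 0.916 of the control level, with an interval of 0.734 to 1.14.

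The other Smox probes gave smaller differences, also below 0 with all arrays. ILMN_2597030 differed by -0.08, ILMN_2608052 by -0.04, ILMN_2766469 by -0.02 and ILMN_1256359 by -0.02, with exact permutation p between 0.587 and 0.848. Without control mouse 8 these were -0.00317 for ILMN_2597030, 0.02 for ILMN_2608052, 0.03 for ILMN_2766469 and 0.03 for ILMN_1256359, so that 3 of the 4 lay above 0. Control mouse 8 had the highest value of the 16 mice on all 5 probes. Between mice, any pair of Smox probes correlated at 0.739 to 0.96 within ATF4 mKO mice and at 0.902 to 0.983 within control mice. The difference between probes of one gene was compared between the genotypes in 13 pairs of Smox and Srm probes with an exact permutation test over 12870 arrangements of the mice. None of the 13 had an adjusted p of 0.1 or less, and the lowest unadjusted p among them was 0.185.

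**Figure D3:**
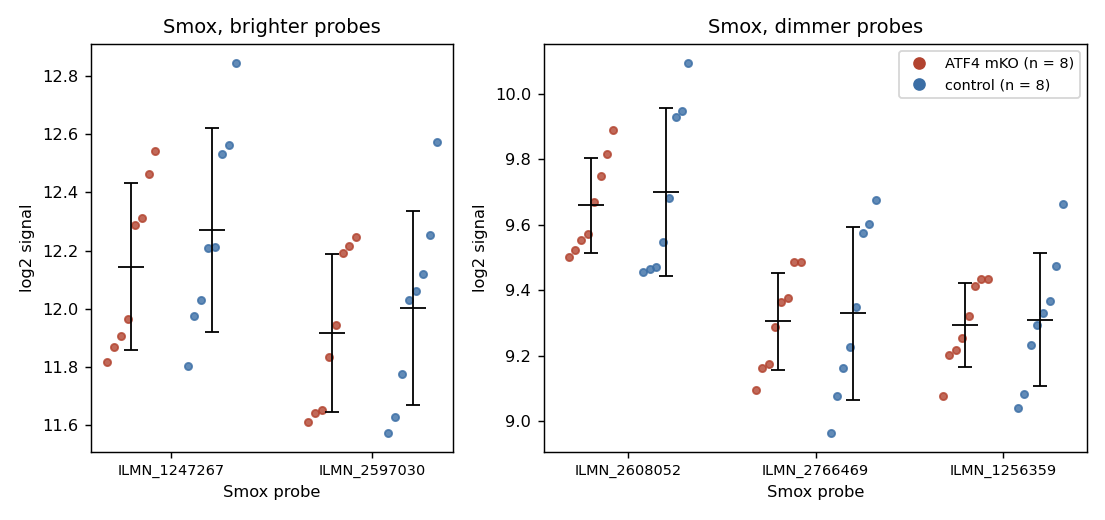
Log2 signal of the 5 Smox probes in each mouse (points; 8 ATF4 mKO left, 8 control right at each probe), with the mean and SD as bars; the panels have separate vertical scales. The groups overlap on every probe, and the highest point of each probe is a control mouse.

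Smox varied more between mice of one genotype than most mRNAs. On its brightest probe the 16 mice spanned 1.04 on the log2 scale, or 2.06-fold, and after subtraction of the floor the 5 probes spanned 1.98- to 2.59-fold. The SD within genotype of the brightest Smox probe was 0.321, larger than that of 99.1% of 8811 probes with a mean of 8.5 or more, whose median SD was 0.0696. Over the 5 Smox probes this share ran between 95.2% and 99.1%. Odc1 (98.2%) and Amd2 (99.3%) were as variable by this measure. Sat1 (45.6%), Oaz1 (65.0%) and Oaz2 (74.3%) were ordinary. The floor also compresses the SD of probes just above 8.5, and no ranking against probes of like signal was made. On the dimmest Smox probe, ILMN_1256359, the SD within genotype was 0.17. The SD of Smox was smaller in ATF4 mKO mice than in control mice on all 5 probes (0.288 against 0.35 on the brightest), a difference for which no test was made.

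No relation between 2 members passed the test in either genotype, and the smallest p belonged to a pair with the added Amd2 probe. Among 8 ATF4 mKO mice, Odc1 and Amd2 correlated at r = 0.852 (exact permutation p = 0.00417) with rho = 0.833 (exact permutation p = 0.0154). Among 8 control mice, r was 0.833 (exact permutation p = 0.00873) and rho 0.738 (exact permutation p = 0.0458). Without the 2 mice farthest from the median of Odc1, r was 0.881 in ATF4 mKO mice and 0.691 in control mice, and without control mice 3 and 7 it was 0.715 in control mice. Of the 56 relations between members, 28 pairs in each genotype, 2 had an unadjusted p of 0.05 or less and 0 an adjusted p of 0.1 or less. Of the 16 relations added for Amd2, 4 had an unadjusted p of 0.05 or less. The share of other gene pairs on the array at that p was not taken. The adjusted p of the Odc1 and Amd2 relation over all 72 was 0.276 in either genotype.

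When deviations from the genotype mean were taken over all 16 mice and permuted within genotype, 2 of 36 pairs passed, both with Amd2. For Odc1 and Amd2, r was 0.836 (permutation p = 0.0001, adjusted p = 0.0036) and rho 0.759 (permutation p = 0.00136). For Smox and Amd2, r was 0.695 (permutation p = 0.00412, adjusted p = 0.0742) and rho 0.779 (permutation p = 0.00091). Smox and Odc1 had r = 0.584 (permutation p = 0.0259, adjusted p = 0.233) and rho = 0.568 (permutation p = 0.0302), which did not pass. Without the 2 mice farthest from their genotype mean in the first gene named of each pair, these values of r were 0.756, 0.686 and 0.679. With 1 mouse left out at a time, r of Odc1 and Amd2 was lowest without control mouse 7, at 0.723.

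Within each genotype, Smox and Amd2 correlated at 0.729 in ATF4 mKO mice (exact permutation p = 0.0411) and 0.704 in control mice (exact permutation p = 0.0456). The adjusted p over all 72 relations was 0.568 in either genotype. For Smox and Odc1, r was 0.618 in ATF4 mKO mice (exact permutation p = 0.0988) and 0.576 in control mice (exact permutation p = 0.133). The antizyme Oaz2 had a negative r with Odc1, which did not pass. In ATF4 mKO mice it was -0.392 (exact permutation p = 0.322, adjusted p = 0.932). In control mice it was -0.731 (exact permutation p = 0.0473, adjusted p = 0.932), and over the 16 deviations -0.571 (permutation p = 0.0253, adjusted p = 0.233). Sms and Azin1, at r = -0.806 in control mice (exact permutation p = 0.0115, adjusted p = 0.644), were both at the floor. In ATF4 mKO mice that r was 0.357 (exact permutation p = 0.388).

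**Figure D4:**
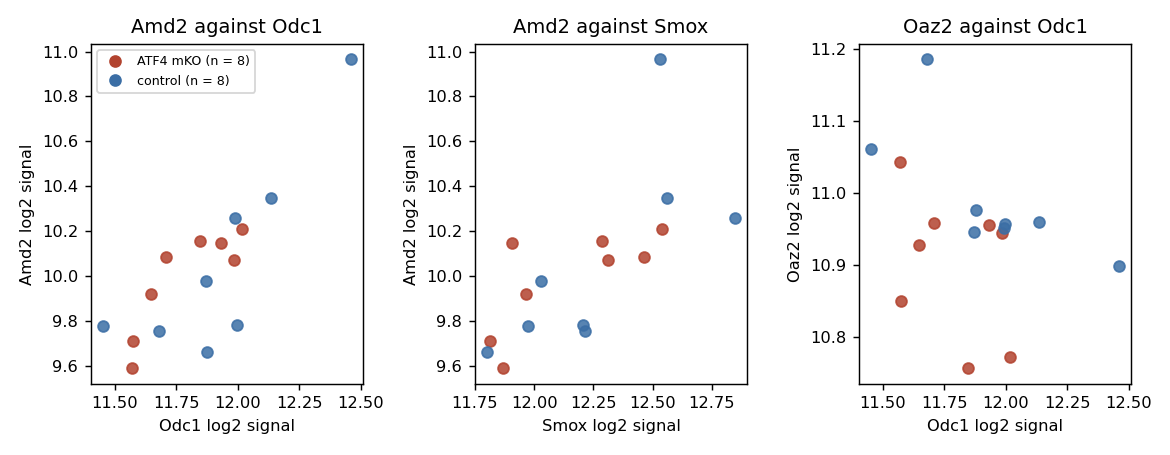
Log2 signal of Amd2 against Odc1, Amd2 against Smox and Oaz2 against Odc1, with 1 point per mouse (8 ATF4 mKO, 8 control). Amd2 is high where Odc1 or Smox is high in both genotypes, and control mouse 7 lies at the upper right of the first panel.

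Other measures moved with these relations. The mean of 6 adipocyte markers ran between 8.80 and 9.19 in ATF4 mKO mice and between 8.69 and 9.35 in control mice, and 3 of the 6 markers were above 8.5 in mean. Its deviations correlated over the 16 mice at -0.794 with Odc1, -0.616 with Amd2, -0.397 with Smox and 0.548 with Oaz2. For the macrophage and leukocyte markers these values were -0.479 with Odc1, -0.548 with Amd2 and -0.298 with Smox, and for the red blood cell markers -0.151, -0.386 and -0.49. The part of the macrophage and red blood cell lists in the relations was not tested. The first principal component within genotype, which held 18.7% of the variance, correlated at 0.768 with Odc1, 0.714 with Amd2 and 0.316 with Smox. After the adipocyte mean was taken out, r over the 16 mice was 0.724 for Odc1 and Amd2, 0.624 for Smox and Amd2, 0.482 for Smox and Odc1 and -0.266 for Odc1 and Oaz2. After the principal component was taken out instead, these were 0.64, 0.707, 0.561 and -0.519. Within a genotype, r of Odc1 and Amd2 was then 0.836 in ATF4 mKO mice and 0.466 in control mice.

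**Figure D5:**
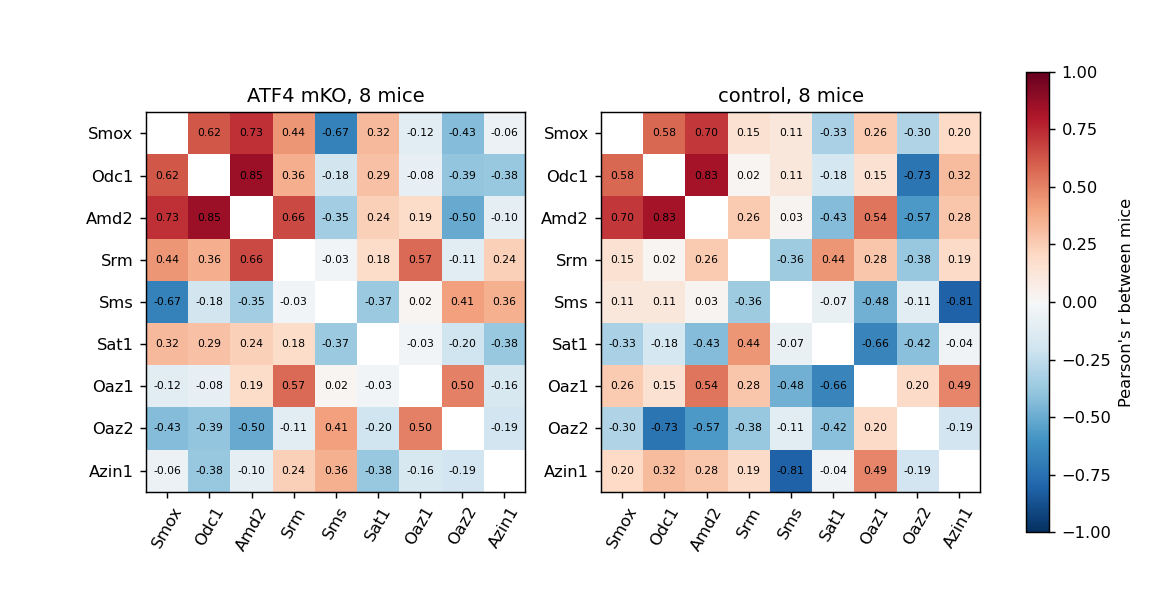
Pearson's r between each pair of polyamine genes, by the brightest probe of each, over 8 ATF4 mKO mice (left) and 8 control mice (right). The values of Smox, Odc1 and Amd2 with each other lie between 0.58 and 0.85 in both maps, and the other pairs lie between -0.81 and 0.66.

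The relations were also read against the rest of the array, as a description with no test, over 6379 other genes with a mean signal of 8.5 or more. Amd2 ranked number 5 among the genes most like Odc1, and Odc1 ranked number 7 among those most like Amd2. For Smox, Amd2 ranked number 21 and Odc1 number 114, while Smox ranked number 137 among those most like Amd2 and number 290 among those most like Odc1. The genes most like Smox over the 16 deviations were Sgta (r = 0.837), Jak2 (0.812), Cd27 (0.8), Oser1 (0.783) and Hipk2 (0.778). Those most opposite were Gstm2 (-0.838), Aldh2 (-0.81), Triap1 (-0.805), Mocs1 (-0.761) and Dcxr (-0.748). Gstm2 conjugates glutathione to reactive compounds, and Aldh2 is the mitochondrial aldehyde dehydrogenase. Sgta, Oser1, Cd27 and Hipk2 had mean signals between 8.59 and 8.81, near the floor. These values of r, and those of the neighbours below, are the extremes of 6379 genes over 16 mice. How high such extremes run by chance was not tested.

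Cd27 was also the gene most like Amd2 (r = 0.954, with 0.919 in ATF4 mKO mice and 0.964 in control mice), followed by Mreg (0.872) and Zbtb18 (0.853), while Dbi (-0.897), Ndufs5-ps (-0.878) and Il15 (-0.865) were most opposite. Odc1 was most like Bmi1 (0.872), Smim19 (0.852) and Tmem100 (0.842), and most opposite to Ccdc28b (-0.863), Apobr (-0.861) and P2ry1 (-0.845). Sat1 was most like Gabarapl1 (0.883), Snap47 (0.801) and Pomt2 (0.776), and most opposite to Usp18 (-0.869), Rars2 (-0.847) and Lrrfip1 (-0.813). Srm was most like Rarb (0.834), Fam83g (0.823) and Hmox2 (0.789), and most opposite to Fmo1 (-0.849), Aph1b (-0.845) and Atp2a3 (-0.794). Of these neighbours, Aph1b, Apobr, Cd27, Usp18, Snap47 and Pomt2 had mean signals between 8.535 and 8.787, near the floor.

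The antizymes had other neighbours. Oaz1 was most like Fndc10 (0.778), Dynll2 (0.773) and Asph (0.756), and most opposite to Srfbp1 (-0.825), Pih1d1 (-0.81) and Gins4 (-0.795). Oaz2 was most like Hdhd5 (0.871), Chmp2a (0.865) and Yeats4 (0.837), and most opposite to Mafg (-0.754), Syt11 (-0.746) and Tomm70a (-0.742). Tomm70a had a mean signal of 8.615, near the floor.

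Smox was set against 10 of 12 listed regulators and atrophy genes in each genotype, 20 relations in all, and 0 had an exact permutation p of 0.05 or less. With Cdkn1a, the cell cycle inhibitor that represses Smox in atrophying mouse muscle, r was -0.178 in ATF4 mKO mice (exact permutation p = 0.689) and -0.635 in control mice (exact permutation p = 0.0924, adjusted p = 0.8), with rho of -0.0476 (exact permutation p = 0.935) and -0.643 (exact permutation p = 0.0962). Without the 2 mice farthest from the median of Smox, these r were -0.518 and -0.734. The difference between the genotypes was not tested. With Nqo1, a target of the oxidative stress factor Nfe2l2, r was 0.212 in ATF4 mKO mice (exact permutation p = 0.615) and 0.691 in control mice (exact permutation p = 0.058). Without the 2 mice farthest from the median of Smox, these r were 0.6 and 0.607. With Nfe2l2 itself, r was 0.587 in ATF4 mKO mice (exact permutation p = 0.12) and -0.338 in control mice (exact permutation p = 0.414), and without those mice 0.354 and 0.538.

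The supply and transport genes around the pathway showed no called change either. In the 7 pathway lists, 53 of 68 genes were measured and 0 were called by limma in either direction. At an unadjusted p under 0.05 there were 7, against 956 of all 16593 genes by their brightest probe. The methods' t-test gave 4 of 53 at an unadjusted p of 0.025, against 2.85% of all probes, and 0 after adjustment. Of these 53 genes, each by its brightest probe, 34 had a mean signal of 8.5 or more, whereas 65.7% of all probes had a mean under 8.5. No share over genes of like signal was taken.

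Among 8 measured genes of polyamine transport, Slc47a1, an exporter of organic cations, read 11.32 ± 0.14 in ATF4 mKO muscle and 11.54 ± 0.14 in control muscle (SD, n = 8 each), a difference of -0.21 (limma adjusted p = 0.689). The other Slc47a1 probes, all with a mean under 8.7, gave -0.08, -0.04 and 0.01. Cav1, the main protein of caveolae, read 11.37 ± 0.13 in ATF4 mKO muscle and 11.54 ± 0.16 in control muscle, a difference of -0.18 (adjusted p = 0.82). Slc12a8 was at the floor.

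Of 8 measured genes that supply ornithine and arginine, both arginases were at the floor, and Oat, ornithine aminotransferase, read 13.09 ± 0.12 in ATF4 mKO muscle and 13.02 ± 0.08 in control muscle (difference 0.07, adjusted p = 0.917). Of 14 genes of the methionine cycle and salvage, Mtap, which clears the by-product of the aminopropyl transfers, read 9.22 ± 0.07 in ATF4 mKO muscle and 9.16 ± 0.07 in control muscle (difference 0.05, adjusted p = 0.907). Ahcy, near the floor, differed by 0.03 (adjusted p = 0.834) and Mat1a, at the floor, by -0.02. Eif5a, the protein that receives the spermidine-derived residue hypusine, read 11.09 ± 0.10 in ATF4 mKO muscle and 11.14 ± 0.06 in control muscle (difference -0.05, adjusted p = 0.94), while Eif5a2 was at the floor.

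Among the paralogs, Sat2 was 8.66 ± 0.03 in ATF4 mKO muscle and 8.63 ± 0.02 in control muscle (difference 0.03, adjusted p = 0.834), and Oaz3 was at the floor. Among 7 genes that handle aldehydes and peroxide, the products of Smox, Gpx1 was 11.83 ± 0.11 in ATF4 mKO muscle and 11.97 ± 0.11 in control muscle (difference -0.15, adjusted p = 0.76). Aldh3a2 differed by -0.05 (adjusted p = 0.894) and Aldh2 by -0.05 (adjusted p = 0.951). Among the regulators, Cdkn1a was 9.47 ± 0.42 in ATF4 mKO muscle and 9.77 ± 0.28 in control muscle (difference -0.30, adjusted p = 0.894), and its other probes gave -0.19 and -0.11. Nqo1 differed by -0.06 (adjusted p = 0.902). The probes of Myc were at the floor and disagreed in sign, with 0.04 (adjusted p = 0.633) and -0.02 (adjusted p = 0.558).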

How the data were processed

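RNA of the quadriceps femoris of 16 mice was hybridised by the authors to bead arrays read with an iScan and processed in BeadStudio. The log2 signals used here are those the authors deposited as a table of 25697 probes by 16 arrays. The sources used here do not give the background correction, the normalization or the slide of each array, and no detection p-values were used. Genotype and mouse number came from the labels. Of the probes, 23978 had 1 gene symbol and 1719 had none.

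A linear model per probe (lmFit, eBayes; limma 3.58.1, R 4.3.3) compared ATF4 mKO minus control, two-sided, with Benjamini-Hochberg adjustment over all probes and calls at an adjusted p of 0.1 or less. Relations between mice used 1 probe per gene, the brightest, with two-sided exact permutation tests over 40320 pairings within a genotype, or 100000 resamples within genotype over 16 deviations (Python 3.11.15, NumPy 2.4.6), for which 1e-05 is the smallest possible p. Both procedures were tested on simulated data. P-values measure the spread between mice.

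All member probes are named, with the 3 genes of smallest p in each pathway list, and the 5 genes (for Smox) or 3 genes (for other members with a mean of 8.5 or more) most and least alike. The members and lists were chosen with earlier results of these data known. The alternatives were quantile normalization, centring, floor subtraction (1st percentile, offset 16), a filter at 8.5, array weights, a replicate block, a trended robust prior, an adjusted p of 0.05, the mean of a gene's probes, arrays left out and the methods' t-test. An exact permutation test of each member probe over 12870 arrangements of the mice, the relations with Amd2, the removal of the adipocyte mean and the leaving out of single mice from the relations over 16 mice were added after the data had been seen. Genes without a probe by this annotation (among them Amd1, Paox, Mat2a, Dhps and Trp53) were not analysed here. Srm and Azin1 have no promoter window. No probe sequences were used.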

Additional observations from a re-analysis of the deposited data

How the results depend on the processing

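The call of 0 member probes held under every refit of limma; the methods' t-test at an unadjusted p of 0.025 gave 1, Oaz1. For the relations, 0 passed within a genotype, and 2 passed when Amd2 was added and both genotypes were taken as deviations. Over all probes, 35 were called, against 16 with the mouse number as a replicate block and 23 with the floor subtracted. With 1 array left out, the changes of 5 probes crossed 0: Smox ILMN_2608052 between -0.0748 and 0.0167, ILMN_2766469 between -0.0765 and 0.0252, ILMN_1256359 between -0.0552 and 0.0339, Srm ILMN_1225880 between -0.00486 and 0.0157, and Amd2 between -0.137 and 0.0488. Without control mice 3 and 7, the Amd2 change was 0.00299. Without the 2 mice farthest from the median of Sms, r of Sms and Azin1 in ATF4 mKO mice was -0.158. The cause was not tested. Same-numbered mice deviated together at r between -0.23 and 0.25, and 1 of the mice correlated best with its own number. This check cannot tell whether same-numbered mice shared a litter or a slide, which the labels do not give. With the replicate block, the Oaz1 change of -0.11 had a limma p of 0.000425 (adjusted p = 0.254), against 0.0113 without the block. No member probe was called with it. Signals near the floor limit Sms, Azin1 and Srm. No group of 8 mice held a value that stood apart by Dixon's test.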
